A study of Rattus norvegicus with 6 samples.

Results

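The 9 genes described here encode kinases and phosphatases of the mitogen-activated protein kinase (MAPK) pathways: the kinases Mapk3, Mapk8, Mapk9 and Mapk14, the upstream kinases Map2k3 and Map2k6, the downstream kinase Mapkapk2, and the phosphatases Dusp1 and Dusp6. They were chosen by gene name from the 34156 genes of the count table, and all 9 were among the 13614 genes with enough counts to test (at least 10 counts in at least 3 libraries). RNA was sequenced from 6 samples of rat RA-FLS, fibroblast-like synoviocytes that the labels give as wild type with the disease state rheumatoid arthritis, acquired from an outside supplier and passaged in culture before treatment. The TNF-α group (3 samples) received 10 ng/mL TNF-α, and the TNF-α+EMO group (3 samples) received the same TNF-α together with 80 μmol/L emodin (EMO), an anthraquinone of rhubarb. Every sample therefore carried TNF-α, and no untreated sample and no sample with EMO alone was analysed here, so each difference is between cells with and without EMO under TNF-α. The labels give day 5 as the time, whereas the study's methods give a shorter incubation. The study's methods call the samples of a group biological replicates, but neither they nor the labels say that these came from separate cultures, so p-values measure the spread between these samples, which may be technical.

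MAPK pathways pass a signal through a chain of kinases, in which a MAP kinase kinase phosphorylates a MAP kinase on a threonine and a tyrosine, and the MAP kinase then phosphorylates further kinases and transcription factors. In synoviocytes, TNF-α is known to switch on the ERK, JNK and p38 branches, which drive cytokine and matrix-degrading enzyme production. Dual-specificity phosphatases remove both phosphates and end the signal, and several of their genes are themselves switched on by the pathway as feedback. RNA counts measure transcripts and say nothing on phosphorylation or kinase activity.

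The libraries held 16813322 to 17794455 counts on genes. Most genes differed between the groups: 80.9% of the tested genes passed an adjusted p under 0.05 by edgeR's quasi-likelihood test, and in 82.9% the libraries of the groups did not overlap in normalised counts. Pairs of TNF-α libraries differed by a median of 0.104 to 0.109 log2 units over genes, and pairs of TNF-α+EMO libraries by 0.130 to 0.233, with replicate 3 the farthest from the others. Of the fibroblast markers, Col1a1, Pdgfra and Vim were abundant in the TNF-α libraries, but the synoviocyte markers Thy1, Pdpn and Prg4 had at most 7 counts in any library. Summed, the 10 fibroblast markers in the table had 198670 to 219550 normalised counts with TNF-α and 35230 to 37995 with EMO. All 7 tested markers were lower with EMO. The EMO sum was mostly Vim (mean 32387), which fell by only 1.90-fold. Pdgfrb, Col1a1, S100a4, Cdh11 and Pdgfra fell by 21.8-fold to 96.4-fold. Fap, at 0 counts in every TNF-α+EMO library, fell by at least 10.2-fold. Of the macrophage markers, Ptprc, Cd163, Csf1r, Adgre1 and Lyz2 had at most 5 counts in any library, while Cd14 and Cd68 were detected in all 6. Cd14 fell (log2 fold change -1.10) and Cd68 rose (0.75) with EMO, and the list, mostly Cd14, summed to 1202 to 1305 normalised counts with TNF-α and 734 to 804 with EMO. The endothelial list summed to 69.2 to 76.5 and 13.2 to 21.7 normalised counts, the epithelial list, almost all from Krt8, to 9942 to 10802 and 1968 to 2304, and the lymphocyte list to at most 3.92 in any library. The marker levels moved with the groups like the genes described here, and their part in the results was not tested. In bulk RNA, fewer cells of a type and less RNA per cell cannot be told apart.

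All 9 genes differed between the groups, 6 lower and 3 higher with EMO. Dusp6, the phosphatase of ERK, fell the most, by 21.7-fold, and Dusp1, the phosphatase that acts mainly on p38 and JNK, rose by 3.56-fold. Mapk14 (p38α) and Mapk3 (ERK1) fell by 2.29-fold and 2.26-fold. Mapk8 (JNK1) rose while Mapk9 (JNK2) fell, and Map2k6 rose while its partner Map2k3 fell. The share of called genes, 100% of 9, stood beside a background of 80.9% of all tested genes, of which 39.4% were higher and 41.4% lower, so a call in itself sets none of these genes apart. The libraries of the groups did not overlap for any of the 9 genes, beside 82.9% of all genes. When more than a doubling was also required (log2 fold change beyond 1 in either direction), 5 of the 9 genes passed, beside 47.3% of all genes. Of these, 1 was higher (Dusp1), beside 19.5% of all genes, and 4 were lower (Dusp6, Map2k3, Mapk14 and Mapk3), beside 27.8%. Over the 9 genes the log2 fold change had a median of -0.34, beside -0.01 over all tested genes. When 1 library at a time was left out, the number of lower genes was 5 or 6 and the number of higher genes 2 or 3, and the calls that were lost were those of Map2k3 and Map2k6.

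**Figure D1:**
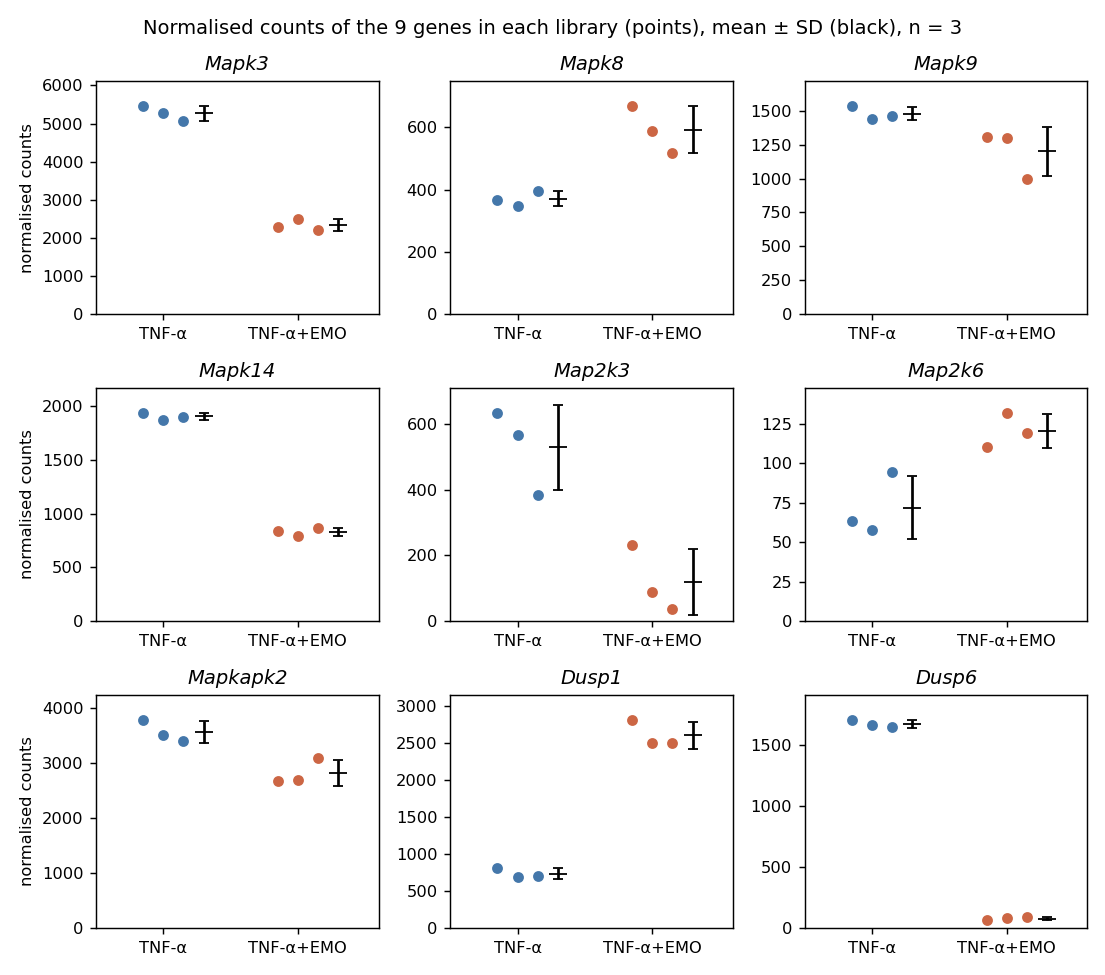
Normalised counts (vertical axes, from 0) of each gene in the 3 TNF-α libraries (blue) and the 3 TNF-α+EMO libraries (orange), with the mean and SD in black. No gene overlaps between the groups, and the TNF-α+EMO libraries of Map2k3 spread from 36.7 to 232.

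**Figure D2:**
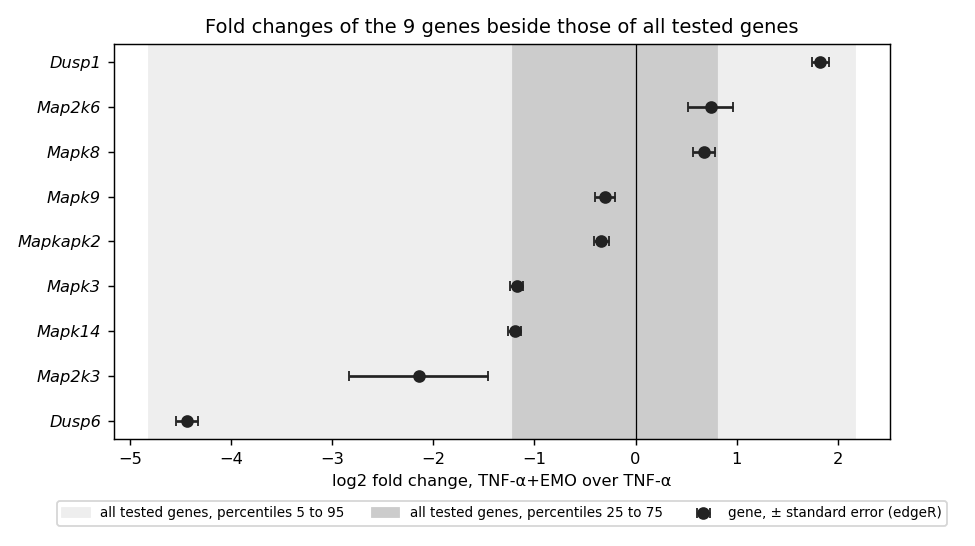
Log2 fold change of TNF-α+EMO over TNF-α (horizontal axis) for each of the 9 genes, with its standard error, over bands that hold the middle of all tested genes (percentiles 25 to 75 and 5 to 95). Dusp6 at -4.44 and Dusp1 at 1.83 lie far outside the inner band but within the outer one, and Map2k3 has the widest error.

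Map2k3 and Map2k6 encode MKK3 and MKK6, the kinases that phosphorylate p38. Map2k3 (chromosome 10, 45089464 to 45110787, in the deposited coordinates of Rnor_6.0) had 634, 567 and 385 normalised counts with TNF-α alone and 232, 90.0 and 36.7 when EMO was added. Every TNF-α library was above every TNF-α+EMO library, but the libraries of 1 group differed by far more than for any of the other 8 genes with EMO. The SD was 24.4% of the mean with TNF-α and 84.4% with EMO, where counting error alone would give 4.30% and 9.27%. The log2 fold change was -2.14 (standard error 0.69, adjusted p = 0.039 by edgeR). The call did not hold without TNF-α replicate 1 (-2.07, adjusted p = 0.093), without TNF-α replicate 2 (-2.16, 0.09), without TNF-α+EMO replicate 2 (-1.95, 0.11) or without TNF-α+EMO replicate 3 (-1.69, 0.058). Without TNF-α+EMO replicate 1 the log2 fold change was -3.04 (adjusted p = 0.0037), and over all 13 other fits the adjusted p ranged from 0.0037 to 0.11. The direction was the same in all 13.

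Map2k6 (chromosome 10, 98706960 to 98823287) was the least abundant of the 9 genes with TNF-α, at 63.8, 57.5 and 94.5 normalised counts, and had 110, 132 and 119 with EMO. The lowest EMO library was above the highest TNF-α library by a margin smaller than the range within the TNF-α group. Map2k6 rose, with a log2 fold change estimated at 0.74 ± 0.22 (standard error), and edgeR gave an adjusted p of 0.0092. Without TNF-α replicate 1 it was 0.59 (adjusted p = 0.061) and without TNF-α replicate 2 it was 0.53 (adjusted p = 0.067), while over all 13 other fits the adjusted p ranged from 0.0039 to 0.067. Because the kinase genes of the pair changed in opposite directions, the counts of Map2k3 were 7.31 times those of Map2k6 with TNF-α (geometric mean of 3 libraries) and 0.764 times with EMO.

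Mapk14 encodes p38α, the p38 kinase that Map2k3 and Map2k6 activate. Mapk14 (chromosome 20, 5933303 to 5995137) had 1940.2, 1873 and 1905 normalised counts with TNF-α and 836, 792 and 868 with EMO. Each group was tight, with an SD of 1.75% and 4.58% of the mean, near the counting error of 2.26% and 3.51%. The estimate of its log2 fold change was -1.20 (standard error 0.07, edgeR adjusted p = 1.8e-08), and it ranged from -1.31 to -1.14 over 13 other fits. A log2 fold change at or below that of Mapk14 was found in 25.2% of the tested genes. The other p38 genes were almost absent. Mapk11, Mapk12 and Mapk13 had at most 10 counts in any library, and Mapk14 made up 99.4% ± 0.425 (SD, n = 3) of the p38 transcripts per length with TNF-α and 98.7% ± 0.971 with EMO. The fall of Mapk14 was therefore also that of the summed p38 transcripts, from 547 ± 10.1 to 240.4 ± 12.7 normalised counts per kilobase.

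Mapk3 encodes ERK1, a kinase that growth factors and TNF-α activate through MEK1 and MEK2. Mapk3 (chromosome 1, 198192773 to 198198975) had the highest level of the 9 genes in the TNF-α group, with 5462, 5284 and 5061 normalised counts, and had 2289.8, 2505 and 2202 with EMO. Its groups were far apart relative to their spread. Mapk3 fell by 1.18 log2 units (standard error 0.07, edgeR adjusted p = 2.5e-08), and its log2 fold change was between -1.29 and -1.11 over 13 other fits. Of the tested genes, 25.4% had a log2 fold change at or below that of Mapk3.

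Mapk8 and Mapk9 encode JNK1 and JNK2, the stress kinases that phosphorylate c-Jun. Mapk8 (chromosome 16, 9625177 to 9709347) had 367, 348 and 396 normalised counts without EMO and 668, 589 and 517 with it, so the groups did not overlap. It rose by 0.68 log2 units (standard error 0.11, edgeR adjusted p = 1.5e-04). Mapk9 (chromosome 10, 35333859 to 35374355) had 1534, 1437 and 1462 normalised counts with TNF-α and 1309, 1295 and 994 with EMO. Its EMO libraries were lower, but replicate 3 was well below both others. Mapk9 fell by 0.30 log2 units (standard error 0.10, edgeR adjusted p = 0.017), and by 0.16 without TNF-α+EMO replicate 3, where the adjusted p was 0.022. Over 13 other fits the adjusted p of Mapk9 ranged from 0.0038 to 0.027, and the directions of Mapk8 and Mapk9 held in every fit, scalings included. A microRNA gene, Mir336, overlaps Mapk9 on the same strand and had at most 5 counts in any library. The summed JNK transcripts were 594 ± 20.8 normalised counts per kilobase with TNF-α and 658 ± 87.0 with EMO, while the share of Mapk8 was 37.7% ± 1.59 and 54.4% ± 1.84. Mapk10, the third JNK gene, had at most 5 counts in any library.

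Mapkapk2 encodes MK2, the kinase downstream of p38 that stabilises cytokine mRNAs through AU-rich element binding proteins. Mapkapk2 (chromosome 13, 47785161 to 47831110) had 3781, 3501 and 3387 normalised counts with TNF-α and 2670.4, 2689 and 3088 with EMO. The groups did not overlap, but the highest EMO library was close to the lowest TNF-α library. Mapkapk2 fell by 0.34 log2 units (standard error 0.07, edgeR adjusted p = 0.0015), and its log2 fold change ranged from -0.45 to -0.28 over 13 other fits. The related Mapkapk3 had 30.9 ± 15.1 and 13.0 ± 3.10 normalised counts, so that Mapkapk2 made up 99.2% ± 0.400 and 99.6% ± 0.119 of the transcripts of this pair per length.

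Dusp1 and Dusp6 encode MKP-1, a nuclear phosphatase, and MKP-3, a cytoplasmic phosphatase selective for ERK. Dusp1 (chromosome 10, 16970626 to 16973418) had 816, 683 and 703 normalised counts without EMO and 2819, 2504 and 2505 with it. Every EMO library was over 3 times the highest TNF-α library. Dusp1 rose by 1.83 log2 units (standard error 0.09, edgeR adjusted p = 5.3e-09), higher than that of 92.8% of the tested genes, and over 13 other fits it was 1.71 to 1.88. Dusp6 (chromosome 7, 41475163 to 41479392) had 1712, 1664 and 1650.2 normalised counts with TNF-α and 63.9, 79.8 and 87.6 with EMO. The TNF-α libraries differed by no more than counting error would give (SD 1.93% of the mean, counting error 2.41%), and every EMO library lay far below every TNF-α library. Dusp6 fell by 4.44 log2 units (standard error 0.11, edgeR adjusted p = 4.4e-11), with 5.87% of the tested genes at or below that log2 fold change, and over 13 other fits the value was -4.55 to -4.30.

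The starts of these phosphatase genes are shown because Dusp6 had the largest fall and Dusp1 the largest rise of the 9 genes. RefSeq promoters (assembly GRCr8, another build than that of the counts, 250 bases before to 50 after the start, written from 5′ to 3′ on the strand of the gene) matched 7 of the 9 genes by symbol. Letters searched on both strands were the cyclic AMP response element TGACGTCA and its core TGACGT, the AP-1 element TGANTCA, and the ETS core CGGAAG, and a match is in capitals. The core is part of the full element, so each full match also counts as a core match.
Dusp1, chr10:17184603-17184902, plus strand: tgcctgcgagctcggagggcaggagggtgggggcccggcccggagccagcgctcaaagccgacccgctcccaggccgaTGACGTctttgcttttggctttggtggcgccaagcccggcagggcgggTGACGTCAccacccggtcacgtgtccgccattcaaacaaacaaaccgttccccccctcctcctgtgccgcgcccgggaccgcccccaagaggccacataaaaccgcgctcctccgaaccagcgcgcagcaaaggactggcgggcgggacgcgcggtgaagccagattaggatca
Dusp6, chr7:35979354-35979653, plus strand: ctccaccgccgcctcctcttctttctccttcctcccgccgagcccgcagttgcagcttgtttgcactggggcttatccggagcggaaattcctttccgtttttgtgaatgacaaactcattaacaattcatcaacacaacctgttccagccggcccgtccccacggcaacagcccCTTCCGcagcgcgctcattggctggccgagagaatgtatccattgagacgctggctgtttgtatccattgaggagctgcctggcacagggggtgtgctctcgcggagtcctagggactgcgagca
The Dusp1 promoter held the full element 124 bases before the start and a separate core 172 bases before it. The full element occurs in 1.83% and its core in 7.94% of the 33469 promoters of that table. The Dusp6 promoter held an ETS core on the opposite strand 75 bases before the start, as do 16.6% of all promoters, and no match to the response element or to AP-1 (7.33% of all promoters). Of the other matched genes, Mapk8 held the response element core 52 bases before its start, and the other 4 (Mapk14, Map2k3, Map2k6 and Mapkapk2) held none of these letters in the window. A match is a description of letters and not of binding. Mapk3 and Mapk9 are the genes with no promoter in the table.

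The balance between genes was compared within each library, where it does not depend on how libraries are scaled. For 7 pairs, the difference of group means of the log2 ratio of counts was tested by an exact two-sided permutation test over the 6 libraries, which cannot give a p below 0.1, with adjustment over the 7 pairs. The values of 6 pairs are given. The Dusp1 to Dusp6 ratio changed most: Dusp1 had 0.437 times the counts of Dusp6 with TNF-α and 33.8 times with EMO. Its log2 ratio was -1.07, -1.28 and -1.23 without EMO and 5.45, 4.96 and 4.83 with it, a difference of 6.28 (exact permutation p = 0.1, adjusted p = 0.117). No library of one group reached the range of the other. The ratio of Dusp1 to Mapk14, the phosphatase to its p38 substrate, went from a log2 value of -1.38 ± 0.11 to 1.65 ± 0.11 (SD, n = 3, exact permutation p = 0.1, adjusted p = 0.117). That of Dusp6 to Mapk3, the phosphatase to its ERK substrate, went from -1.65 ± 0.03 to -4.92 ± 0.26 (exact permutation p = 0.1, adjusted p = 0.117). The phosphatase transcripts moved in opposite directions relative to those of a kinase each acts on. Since Mapk14 and Mapk3 fell almost alike (log2 fold changes -1.20 and -1.18), these ratios mostly restate the changes of Dusp1 and Dusp6.

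Kinases of a family were compared in the same way. The log2 ratio of Mapk8 to Mapk9 was -1.996 ± 0.10 with TNF-α and -1.01 ± 0.10 with EMO (SD, n = 3, exact permutation p = 0.1, adjusted p = 0.117). The JNK transcripts were thus closer to equal counts with EMO, with no overlap between the groups. These counts are not divided by gene length. Per kilobase, the share of Mapk8 in the JNK transcripts went from 37.7% to 54.4%. The Map2k3 to Map2k6 ratio differed by -3.26 on the log2 scale, but its EMO libraries ranged from -1.69 to 1.07, and leaving out 1 library at a time gave -3.99 (without TNF-α+EMO replicate 1) to -2.61 (without TNF-α+EMO replicate 3). The Mapkapk2 to Mapkapk3 ratio overlapped between the groups (6.95 ± 0.74 and 7.73 ± 0.36, exact permutation p = 0.2, adjusted p = 0.2). Mapkapk3 had at most 47 counts in a library, and its SD with TNF-α was 48.9% of the mean, where counting error would give 17.8%.

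**Figure D3:**
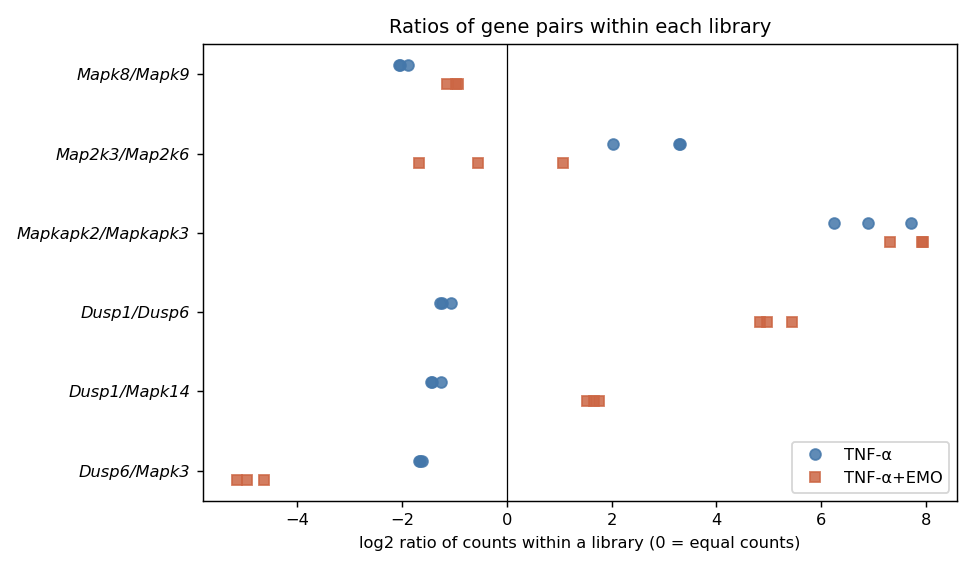
Log2 ratio of the counts of 2 genes within a library (horizontal axis, 0 for equal counts) for 6 pairs, with the 3 TNF-α libraries as circles and the 3 TNF-α+EMO libraries as squares. The groups are apart in 5 pairs, most for Dusp1/Dusp6, and overlap for Mapkapk2/Mapkapk3.

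Levels were compared between genes per kilobase of the deposited gene length. With TNF-α the order of the 9 genes in normalised counts per kilobase was Mapk3 (2958 ± 113), Mapkapk2 (1408 ± 80.3), Dusp6 (608 ± 11.7), Mapk14 (544 ± 9.54), Dusp1 (379 ± 37.1), Mapk9 (369 ± 12.6), Map2k3 (228 ± 55.5), Mapk8 (224 ± 14.7) and Map2k6 (33.9 ± 9.32). Dusp1 could not be told from Mapk9 in this order, nor Map2k3 from Mapk8, since their libraries overlapped. With EMO, Dusp1 (1348 ± 93.8) and Mapk3 (1309.6 ± 87.5) were at the top and overlapped, followed by Mapkapk2 (1115 ± 93.5), Mapk8 (358 ± 45.6) and Mapk9 (299.9 ± 44.5), which overlapped, and Mapk14 (237 ± 10.9). At the bottom, Map2k6 (56.8 ± 5.13), Map2k3 (51.6 ± 43.6) and Dusp6 (28.003 ± 4.38) followed, where Map2k3 overlapped with both of its neighbours. By group mean, Dusp6 went from the third highest of the 9 genes to the lowest, and Dusp1 from the fifth to the first. Of these ranks, only that of Dusp6 with TNF-α was free of overlap with a neighbour.

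The summed transcripts of the phosphatase family did not fall with Dusp6, but the sum includes Dusp1, which rose from 379 to 1348 normalised counts per kilobase. Summed over the MAP kinase phosphatases, the level was 1855 ± 61.7 normalised counts per kilobase with TNF-α and 2483 ± 77.9 with EMO. Dusp6 contributed 32.8% ± 0.487 of the sum with TNF-α and 1.13% ± 0.206 with EMO, and Dusp1 20.4% ± 1.31 and 54.2% ± 2.05. Dusp8, a phosphatase of JNK and p38, rose by 1.99 log2 units (standard error 0.10, edgeR adjusted p = 9.6e-09), and its share went from 4.4% ± 0.211 to 13.0% ± 0.904. Dusp10, with the same substrates, rose by 1.17, from 164 ± 8.70 to 369.6 ± 39.0 normalised counts. Dusp7, a cytoplasmic ERK phosphatase like Dusp6, fell by 0.56, and Dusp4, a nuclear phosphatase, fell by 0.74. Of the 8 family genes tested, 4 were higher (Dusp1, Dusp5, Dusp8 and Dusp10), 3 lower (Dusp4, Dusp6 and Dusp7), and Dusp16 did not pass (log2 fold change 0.18, adjusted p = 0.12 by edgeR). Dusp2 and Dusp9 had 0 counts in every library, which allows up to 3 counts in each, a floor that covers counting error only.

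**Figure D4:**
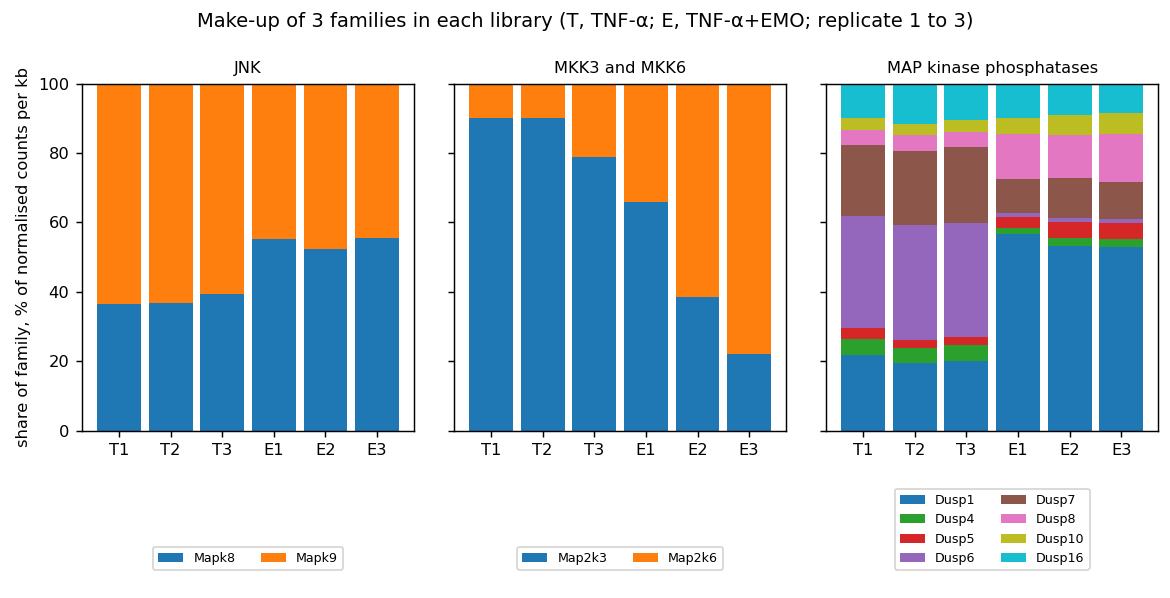
Share of each gene in the summed normalised counts per kilobase of 3 families (vertical axis, percent) in the 3 TNF-α libraries (T1 to T3) and the 3 TNF-α+EMO libraries (E1 to E3); genes under 0.5% in every library are not drawn. Dusp6 takes 32.8% of the phosphatase family on average with TNF-α and 1.13% with EMO.

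The rest of the pathway was described with lists of 8 groups of genes, in which 83 genes other than the 9 were tested. Of these, 22 were higher and 39 lower with EMO and 22 did not pass, so 73.5% were called, beside 80.9% of all genes, with a median log2 fold change of -0.25. The share called was below the background and therefore gives no result about the pathway as a whole. The counts of each list are to be read beside the 39.4% of all tested genes that were higher and the 41.4% that were lower, and no difference between lists was tested.

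In the ERK module, 8 of 13 tested genes were higher, 2 lower and 3 did not pass (median log2 fold change 0.32). Map2k2 (MEK2), which phosphorylates ERK1, rose by 1.49 (standard error 0.12), from 1758 ± 126 to 4952 ± 886 normalised counts. Lamtor3, the scaffold MP1 that holds MEK1 and ERK1 on late endosomes, rose by 2.15 (standard error 0.07), from 798 ± 51.3 to 3544 ± 22.9. The 2 lower genes of this module were Mapk3 itself and Ksr1, a scaffold that had at most 76 counts in a library and is named after its values were seen. The count of lower genes was 1 without TNF-α replicate 1 and 1 without TNF-α replicate 3. In these fits Ksr1 was not tested, since only its TNF-α libraries reached 10 counts and the filter asks for 3 such libraries. Mapk3 kept its call in all 13 other fits. Thus Mapk3 was lower while the kinases directly above it, Map2k1 (0.38) and Map2k2, were higher (adjusted p = 1.3e-04 and 2.4e-06 by edgeR).

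In the JNK module, 4 of 12 genes were higher and 3 lower, with a median of -0.04. Map2k7 (MKK7), which activates JNK alone, rose by 0.76 (standard error 0.08), and Map3k10, a mixed-lineage kinase, rose by 0.63 (standard error 0.11). Map3k12, the kinase DLK, fell by 0.65 (standard error 0.09). Map2k4, which activates both JNK and p38, differed by -0.14 log2 units (standard error 0.12) and did not pass (edgeR adjusted p = 0.28).

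In the p38 module, 9 of 14 genes were lower and 1 higher, which is Map2k6, with a median of -0.37. Map3k5 (ASK1), an upstream kinase activated by oxidative stress and TNF-α, fell by 3.47 (standard error 0.08), from 1533 ± 12.8 to 139 ± 6.28 normalised counts. Taok2, another upstream kinase in this list, fell by 1.48 (standard error 0.07). Each gene was placed in 1 list only, so upstream kinases that can act on both JNK and p38 count for 1 branch. The falls in this list are therefore not particular to p38. Mapk14 and Map2k3 stood among the lower genes of the list with log2 fold changes of -1.20 and -2.14. The count of higher genes in this list was 0 without TNF-α replicate 1 or 2, 2 without TNF-α+EMO replicate 1 and 3 without TNF-α+EMO replicate 3, and that of lower genes was 6 to 8 when 1 library was left out, with 6 without TNF-α+EMO replicate 2.

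Among the kinases that MAPKs activate, 7 of 10 were lower and 2 higher (median -0.33). Rps6ka1 (RSK1), a target of ERK, fell by 1.31 (standard error 0.11), and Mknk2 fell by 0.93 (standard error 0.09), while its paralogue Mknk1, like it a kinase of the translation factor eIF4E, rose by 1.35 (standard error 0.07). Mapkapk5 (MK5) rose by 1.00 (standard error 0.07), against the fall of 0.34 in Mapkapk2. The list of feedback inhibitors holds 7 Sprouty and Spred genes, which restrain the ERK branch, and Errfi1, an inhibitor of the EGF receptor. All 8 were lower, beside 41.4% of all tested genes, with a median of -2.13. Errfi1 fell by 0.74 (standard error 0.09) and is named after its values were seen. Spry4 fell from 948 ± 28.4 to 149.96 ± 20.9 normalised counts (-2.66, standard error 0.11), and Spred1 from 315 ± 15.999 to 71.1 ± 7.27 (-2.15, standard error 0.14). Spry3, with at most 60 counts, had 0 counts in every TNF-α+EMO library and was at least 17.6-fold lower, with the floor set at 3 counts in each library. It is named because that group was at 0, and its fitted value depends on the small count edgeR adds. With Spry3 at its bound the median of the list was also -2.13.

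Of 20 nuclear targets, 5 were higher, 9 lower and 6 did not pass (median -0.36). Egr1, an immediate early gene of the ERK branch, fell from 1025 ± 53.6 to 22.9 ± 2.20 normalised counts (-5.48, standard error 0.12), and Etv4, an ETS factor, from 759 ± 42.6 to 27.0 ± 4.99 (-4.81, standard error 0.14). Jund and Fosl1, subunits of AP-1, rose by 2.50 (standard error 0.14) and 2.40 (standard error 0.10). The other Jun and Fos genes of the list did not move together. Jun rose (log2 fold change 1.92), Fos fell (-3.53, at most 53 counts in a library), and Junb, Fosb and Fosl2 did not pass. Of the 7 MK2 substrates and AU-rich element binding proteins tested, 4 were lower and 1 higher (median -0.92). Zfp36l1, which promotes decay of mRNAs with AU-rich elements, fell from 4363 ± 281 to 236 ± 4.54 normalised counts (-4.21, standard error 0.08), and Zfp36l2 fell by 2.34 (standard error 0.17). Hspb1, a small heat shock protein phosphorylated by MK2, rose from 1553 ± 102 to 5415 ± 158 (1.80, standard error 0.07). Apart from the 9 genes, the genes named here as higher or lower had edgeR adjusted p-values of at most 3.1e-04, the value of Map3k10.

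**Figure D5:**
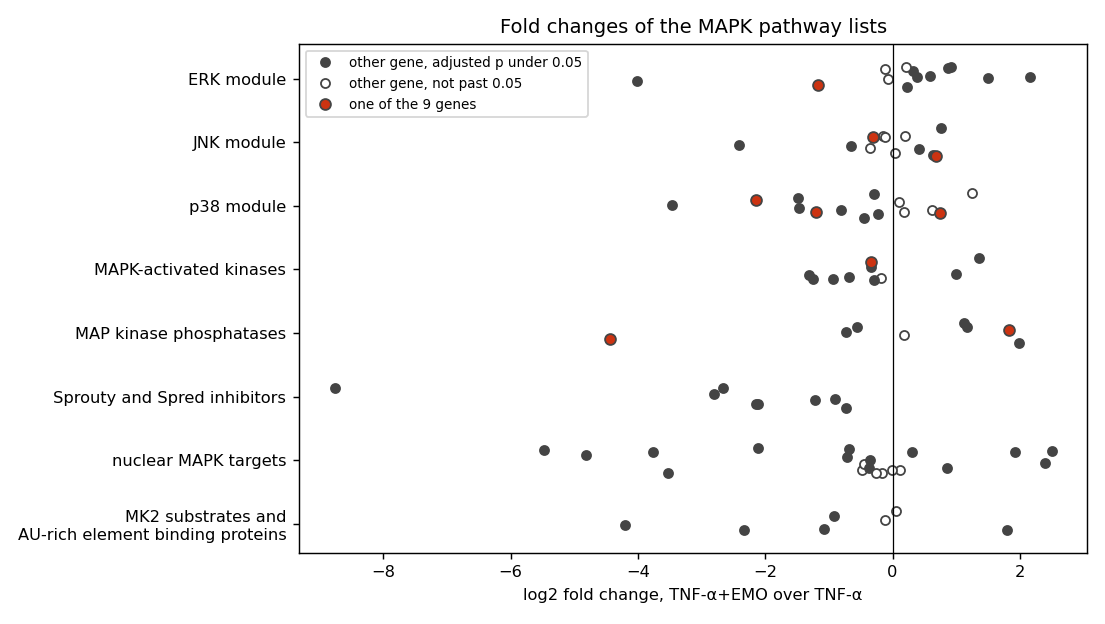
Log2 fold change of TNF-α+EMO over TNF-α (horizontal axis) of each tested gene in the 8 pathway lists, with the 9 genes in red, other genes past an adjusted p of 0.05 in grey and those not past it open. All 8 genes of the Sprouty and Spred list, Errfi1 included, lie below 0, and the point at -8.76 is Spry3, whose fitted value depends on the small count added.

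The profiles most like those of the genes with the largest changes were found among 9414 tested genes with a symbol and a mean of at least 100 counts, by the Euclidean distance of centred log2 normalised counts over the 6 libraries. For Dusp6, P4ha3 (distance 0.156 log2 units) and Emilin1 (0.164) were among the 3 nearest, with log2 fold changes of -4.36 and -4.47. For Dusp1 the nearest were Cpm (0.128), Aftph (0.183) and Zdhhc4 (0.186). Map2k3 had no gene as near, with Atxn7l1 (1.27), Tlr3 (1.30) and Tmsb10 (1.37) as the closest. With libraries in only a pair of groups, such likeness mostly restates the size of the group difference.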

How the data were processed

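Poly(A)-selected paired-end RNA-seq libraries of 6 samples were cleaned and aligned by the authors' provider; the submitters' processing notes name FastQC, Trimmomatic, HISAT2 and the build Rnor_6.0. The authors deposited raw counts per gene and library, without normalization. The counting program, the annotation version and the strand setting are not given in the sources used here, so overlapping genes are uncertain. The gene length in bases, as deposited, was used to give levels per kilobase. The table also holds 6 columns of FPKM and the authors' own group means, fold changes and p-values, which were not used.

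Testing was limited to the 13614 of 34156 genes that reached 10 counts in 3 or more libraries. Counts were scaled by TMM and compared by the quasi-likelihood F test of edgeR 4.0.16 in R 4.3.3 with robust estimation, without covariates, and p-values were adjusted by Benjamini-Hochberg over all tested genes. A gene was called at an adjusted p under 0.05. The standard error is the log2 fold change divided by the square root of F. Normalised counts are counts scaled to the mean effective library size. DESeq2 1.42.0 served as another tool, and the scripts were tested on simulated data. Ratios used log2 of counts plus 0.5. Libraries held 16813322 to 17794455 counts, and a floor of 3 counts was used.

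The 9 genes, the lists and the tests were chosen with earlier results of these data known. Named beside the 9 genes are, from each list, the 2 genes with the largest rise and the 2 with the largest fall among called genes whose mean count reached 100 and whose groups did not overlap, the partners of the ratios, and the 3 nearest profiles of the genes with the largest changes. Other genes named were chosen after their values were seen. Replicate numbers come from the labels. Across genes, deviations of same-numbered libraries from their group means correlated with r of 0.0196, -0.000655 and 0.0565, so the numbers were not taken to pair the samples. Hnrnpa0, Col1a2 and Pecam1 of the lists were not analysed here, and 1 ratio and 1 nearest profile are not reported here.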

Additional observations from a re-analysis of the deposited data

How the results depend on the processing

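Of the recomputed counts over all 9 genes and all other pathway genes, and of the ratios, 113 kept their direction and, for counts, stayed within 1.5 times. The 3 that moved came from adding an absolute log2 fold change over 1, which left 1 of the 9 genes higher in place of 3, and 11 higher and 21 lower genes of the other pathway genes in place of 22 and 39. Across the 13 other fits (another tool, scaling or filter, the replicate block, or 1 library fewer), 7 of the 9 genes kept their call in every fit; Map2k3 lost it in 5, also with no filter on low counts (-2.15, adjusted p = 0.059), and Map2k6 in 2. With the replicate number as a block, 3 of the 9 genes were higher and 6 lower, and 23 and 37 of the other pathway genes, and the block changed no call among the 9 genes. With the block, the 7 ratios keep their values, with sign flips of 3 pairs giving a p of at least 0.25. Scaling by library totals moved the median log2 fold change of all tested genes from -0.01 to -0.125. The changes of Mapk9 and Mapkapk2 are the nearest to this shift. With that scaling they were -0.413 and -0.451, so they moved with it, and both calls held. With no filter on low counts the median was -0.128, but over 19744 tested genes in place of 13614. There the log2 fold changes of Mapk9 (-0.303) and Mapkapk2 (-0.339) hardly differed from those with the filter (-0.301 and -0.337). The exact permutation test used for the ratios cannot give a p under 0.05 with 3 libraries against 3. Outlying libraries were not tested for in groups of this size.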
